A study of Mus musculus with 15 samples.

Results

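The 34 genes described here encode the hypoxia-inducible factors (HIFs) and their regulator VHL, the enzymes and transporters of glycolysis, and targets of the HIFs outside glycolysis. They were chosen by gene symbol from knowledge of these pathways, with no threshold on measured values but with earlier results of these data known. All 34 were found among the 26301 gene rows of the count data, and 32 passed the filter on low counts in each set of libraries. Aldoc, the brain form of aldolase, and Car12, a membrane carbonic anhydrase, did not pass it and stayed at or below 0.779 and 0.431 CPM, counts scaled to a common library total, in every library. Poly(A) RNA was sequenced from 3T3-L1 cells, a mouse preadipocyte line, on day 2 after induction of differentiation with insulin, dexamethasone and IBMX in high-glucose medium with serum. The labels name no exposure to low oxygen. There were 15 libraries in 5 groups of 3 replicates. The control (sh-Empty) cells of the knockdown set carried a retrovirus without a short hairpin, and JMJD1A-KD (sh-Jmjd1a) cells carried one with a short hairpin against Jmjd1a, now named Kdm3a. In the rescue set, all 3 groups were sh-Jmjd1a cells that also carried a second retrovirus expressing LacZ as the control, wild-type JMJD1A(WT), or JMJD1A(H1122A), which is mutated where the enzyme binds iron. Both JMJD1A transgenes had a silent change that the short hairpin does not target. The lines were established by antibiotic selection after infection, with transgenes driven by a retroviral vector, and whether each line was a pool or 1 clone is not given in the sources used here. The labels do not say whether replicates were separate cultures, so p-values measure only the spread between these samples, which may be technical.

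Cells sense oxygen through prolyl hydroxylases, which mark the alpha subunits HIF1A and EPAS1 (HIF2A) for removal through VHL when oxygen is present. When oxygen is low, an alpha subunit pairs with ARNT and binds a short core motif near genes for glucose uptake, glycolysis, lactate production, blood vessel growth and mitophagy. Glycolysis is also under hormonal control in fat cells, where insulin raises glucose entry and the amount of hexokinase 2. JMJD1A removes methyl groups from lysine 9 of histone H3 and needs iron, oxygen and 2-oxoglutarate to do so, and its gene is itself a known HIF target.

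The promoters of 6 members are shown, because these 6 were called as changed in the most comparisons among the members with an entry in the RefSeq promoter table (build GRCm38.p6). Ndrg1, Epas1 and Bnip3l had no entry. Each sequence holds the 250 bases before the start site on the gene's own strand, and capitals mark the HIF core, written ACGTG or GCGTG on either strand. Eno1 had 3 entries, of which the first is shown, and the other genes shown had 1 each. The intervals are chr9:121857797-121858046 (minus strand) for Higd1a, chr4:150236458-150236707 (plus strand) for Eno1, chr6:82774455-82774704 (minus strand) for Hk2, chr13:6648772-6649021 (minus strand) for Pfkp, chr7:34230337-34230586 (minus strand) for Gpi1 and chr3:95434140-95434389 (plus strand) for Arnt.
Higd1a: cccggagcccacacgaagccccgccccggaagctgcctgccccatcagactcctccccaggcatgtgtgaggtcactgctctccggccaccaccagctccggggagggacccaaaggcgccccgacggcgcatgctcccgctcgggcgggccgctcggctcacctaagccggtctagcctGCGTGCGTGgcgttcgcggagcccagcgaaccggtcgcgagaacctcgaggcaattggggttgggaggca
Eno1: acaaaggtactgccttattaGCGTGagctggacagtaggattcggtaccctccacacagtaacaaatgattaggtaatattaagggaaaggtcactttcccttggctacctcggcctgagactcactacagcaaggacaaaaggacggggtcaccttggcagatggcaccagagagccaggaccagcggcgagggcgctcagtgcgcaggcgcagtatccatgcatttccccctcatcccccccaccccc
Hk2: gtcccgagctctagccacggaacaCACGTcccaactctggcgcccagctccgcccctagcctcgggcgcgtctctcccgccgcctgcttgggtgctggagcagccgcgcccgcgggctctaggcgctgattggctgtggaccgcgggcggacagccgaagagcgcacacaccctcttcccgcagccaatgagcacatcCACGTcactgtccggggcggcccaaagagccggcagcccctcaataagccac
Pfkp: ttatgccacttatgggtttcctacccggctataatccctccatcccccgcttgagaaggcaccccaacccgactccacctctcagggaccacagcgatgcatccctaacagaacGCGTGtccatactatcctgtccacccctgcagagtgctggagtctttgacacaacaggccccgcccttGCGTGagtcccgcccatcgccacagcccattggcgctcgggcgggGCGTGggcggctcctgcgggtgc
Gpi1: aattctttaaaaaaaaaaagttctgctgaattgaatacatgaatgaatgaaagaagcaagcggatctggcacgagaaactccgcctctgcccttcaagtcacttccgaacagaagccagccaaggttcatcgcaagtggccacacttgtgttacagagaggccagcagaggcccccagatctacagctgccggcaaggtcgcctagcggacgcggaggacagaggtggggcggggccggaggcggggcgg
Arnt: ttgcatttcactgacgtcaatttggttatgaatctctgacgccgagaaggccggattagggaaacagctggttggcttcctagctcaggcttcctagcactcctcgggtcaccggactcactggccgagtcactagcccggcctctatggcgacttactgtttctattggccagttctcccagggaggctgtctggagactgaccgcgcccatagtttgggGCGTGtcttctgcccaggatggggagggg

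The core was found in the windows printed for Higd1a, Eno1, Hk2, Pfkp and Arnt, and not in that of Gpi1. The 2 matches in the Hk2 window read CACGT, the core on the other strand. With windows that also reach 50 bases past the start site, 27 of the 31 members with an entry (87.1%) held the core in at least 1 window. The share was 46.7% of all 27025 genes of the table and 68.3% of the 9476 genes tested in the knockdown set that had an entry. Among windows of this length, 36 of 46 of the members (78.3%) and 43.8% of all 32851 held it. The core is short and is also part of the E-box CACGTG, so a match is a description of these letters and not a binding site. On knockdown, the core was present in 10 of 12 members that rose, in 7 of 7 that fell and in 9 of 10 that were not called. Ldha, the muscle-type subunit of lactate dehydrogenase, had the most matches in 1 window, 7, and Hk1 and Bnip3 had 5 each.

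Total counts per library ranged from 11437058 to 25523148, with the highest in JMJD1A(WT) replicate 3. Levels below are CPM scaled by TMM within each set, so they are compared within a set only. Each set was fitted by the quasi-likelihood F test of edgeR, p-values were adjusted by Benjamini-Hochberg over all genes of the set, and a gene was called as changed at an adjusted p under 0.05. Kdm3a itself measured 176 ± 7.31 CPM in control cells and 132 ± 5.76 CPM in JMJD1A-KD cells (mean ± SD, n = 3), a log2 fold change of -0.42 ± 0.0484 (SE), adjusted p = 2.91e-08. Among the rescue lines Kdm3a measured 119 ± 2.62 CPM with LacZ, 1690 ± 69.0 CPM with JMJD1A(WT) and 2197 ± 92.2 CPM with JMJD1A(H1122A), and the files do not separate transgene from endogenous reads. The preadipocyte marker Pdgfra measured 657 ± 12.2 CPM in control cells and the adipocyte markers Pparg and Fabp4 measured 124 ± 2.83 and 560 ± 17.9 CPM, so cells of the labelled kind were present. Of the 5 skeletal muscle markers, Myod1, Myog and Ckm had 0 counts in every library, which allows at most 0.262 CPM in the shallowest one, while Des reached 365 counts and Actn3 65. No epithelial marker exceeded 7 counts in a library and no endothelial marker 22. Of the 5 macrophage and leukocyte markers, Ptprc and Adgre1 did not exceed 1 count, Itgam reached 5, Csf1r 13 and Cd68 45, and Cd68, the only one tested, was called in no comparison.

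Other cell-state markers moved in the same comparisons as the members. The 9 adipocyte markers summed to 5463 to 5552 CPM in control cells and 2756 to 2906 CPM in JMJD1A-KD cells, and all 9 fell, with Adipoq at -3.35 ± 0.112, adjusted p = 1.18e-19 and Cebpa at -1.35 ± 0.0588, adjusted p = 1.34e-16. They summed to 3481 to 3565 CPM with LacZ, 4016 to 4382 CPM with JMJD1A(WT) and 2679 to 2790 CPM with JMJD1A(H1122A). All 9 rose with JMJD1A(WT) against LacZ and fell with JMJD1A(H1122A) against either. The 8 preadipocyte and fibroblast markers summed to 5832 to 6043 CPM in control cells and 10390 to 10870 CPM in JMJD1A-KD cells, and 5 of them rose, 2 fell and Pdgfra was not called. Most of the rise in the sum was that of the collagen genes Col1a1, from 1168 to 3122 CPM, and Col1a2, from 3033 to 6068 CPM, and the falls were those of Dlk1 (-0.76 ± 0.0413, adjusted p = 6.27e-15) and Ly6a (-0.41 ± 0.124, adjusted p = 0.00822). The same markers summed to 12100 to 12450 CPM with LacZ, 11800 to 12380 CPM with JMJD1A(WT) and 12860 to 13730 CPM with JMJD1A(H1122A). The 5 muscle markers summed to 6.38 to 7.96 CPM in control cells, 2.88 to 4.43 CPM in JMJD1A-KD cells, 4.80 to 5.66 CPM with LacZ, 16.7 to 20.1 CPM with JMJD1A(WT) and 2.35 to 3.94 CPM with JMJD1A(H1122A). Des and Actn3 both rose with JMJD1A(WT) against LacZ and fell with JMJD1A(H1122A) against JMJD1A(WT), and on knockdown Actn3 fell and Des was not called. All 8 markers of mitosis and replication rose on knockdown, from a summed 1243 to 1317 CPM to 1621 to 1683 CPM. They summed to 1644 to 1680 CPM with LacZ, 1599 to 1632 CPM with JMJD1A(WT) and 1690 to 1759 CPM with JMJD1A(H1122A). Of the 8, 1 fell with JMJD1A(WT) against LacZ. With JMJD1A(H1122A), 2 rose against JMJD1A(WT) and 1 rose against LacZ, and the others were not called. The part of these shifts in the results for the members was not tested, and in bulk RNA fewer cells of a type and less RNA per cell cannot be told apart.

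To learn whether knockdown of JMJD1A shifts glycolysis and the hypoxia response as a block, the members were compared between JMJD1A-KD and control cells. They did not move as a block: of the 32 tested, 13 rose, 9 fell and 10 were not called. Of all 12272 genes tested, 22.3% rose and 23.9% fell, and 46.2% were called in either direction. The libraries of both groups did not overlap for 23 of the 32 members, against 53% of all genes tested. The median log2 fold change was 0.077 over the members and -0.00315 over all genes. The 17 members that form the chain from glucose entry to lactate export (Slc2a1 to Slc16a3, without the PFK-2 regulators) summed to 7253 to 7435 CPM in control cells and 6970 to 7542 CPM in JMJD1A-KD cells, which overlap. Abundant genes weigh most in this sum, and some moved in opposite directions, as Aldoa from 1213 to 1004 CPM and Pgk1 from 856 to 1003 CPM. The overlap therefore does not show that single steps were unchanged. The changes were small for most members. Epas1 and Hk2 had the largest changes among the members called lower, and Ndrg1, Higd1a and Hk1 among those called higher.

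In the rescue set, the 3 comparisons share libraries, so each is given on its own. With JMJD1A(WT) against LacZ, 2 members rose and 4 fell, where 4.98% of the 12557 genes tested rose, 4.52% fell and 9.5% were called in either direction. With JMJD1A(H1122A) against JMJD1A(WT), 8 members rose and 5 fell, where 12.1% of all genes rose, 11.7% fell and 23.8% were called either way. With JMJD1A(H1122A) against LacZ, 4 members rose and 2 fell, where 4.78% of all genes rose, 4.46% fell and 9.24% were called either way. The libraries of the 2 groups did not overlap for 10, 19 and 8 of the 32 members in these comparisons, against 22.9%, 37.1% and 25.1% of all genes. The median log2 fold changes of the members were -0.0196, 0.0426 and 0.0386 in this order, and those of all genes were -0.000143, -0.00118 and 0.000524. The count of fallen members with JMJD1A(WT) against LacZ depended on single libraries: it was 2 without LacZ replicate 2, 1 without LacZ replicate 3, 2 without JMJD1A(WT) replicate 1 and 0 without JMJD1A(WT) replicate 3. The count of risen members was 1 without LacZ replicate 2 or 3 or JMJD1A(WT) replicate 1 or 2, and of the 6 calls only that of Pfkp was kept under every alternative tried. With JMJD1A(H1122A) against LacZ, the count of risen members was 1 without LacZ replicate 1 or JMJD1A(H1122A) replicate 1 or 3 and 2 without LacZ replicate 3, and the count of fallen members was 0 without JMJD1A(H1122A) replicate 1 and 1 without any 1 of the LacZ libraries or JMJD1A(H1122A) replicate 2. Tested but called in none of the 4 comparisons were 9 members, among them Vhl, Pfkm, Gapdh and Pkm.

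**Figure D1:**
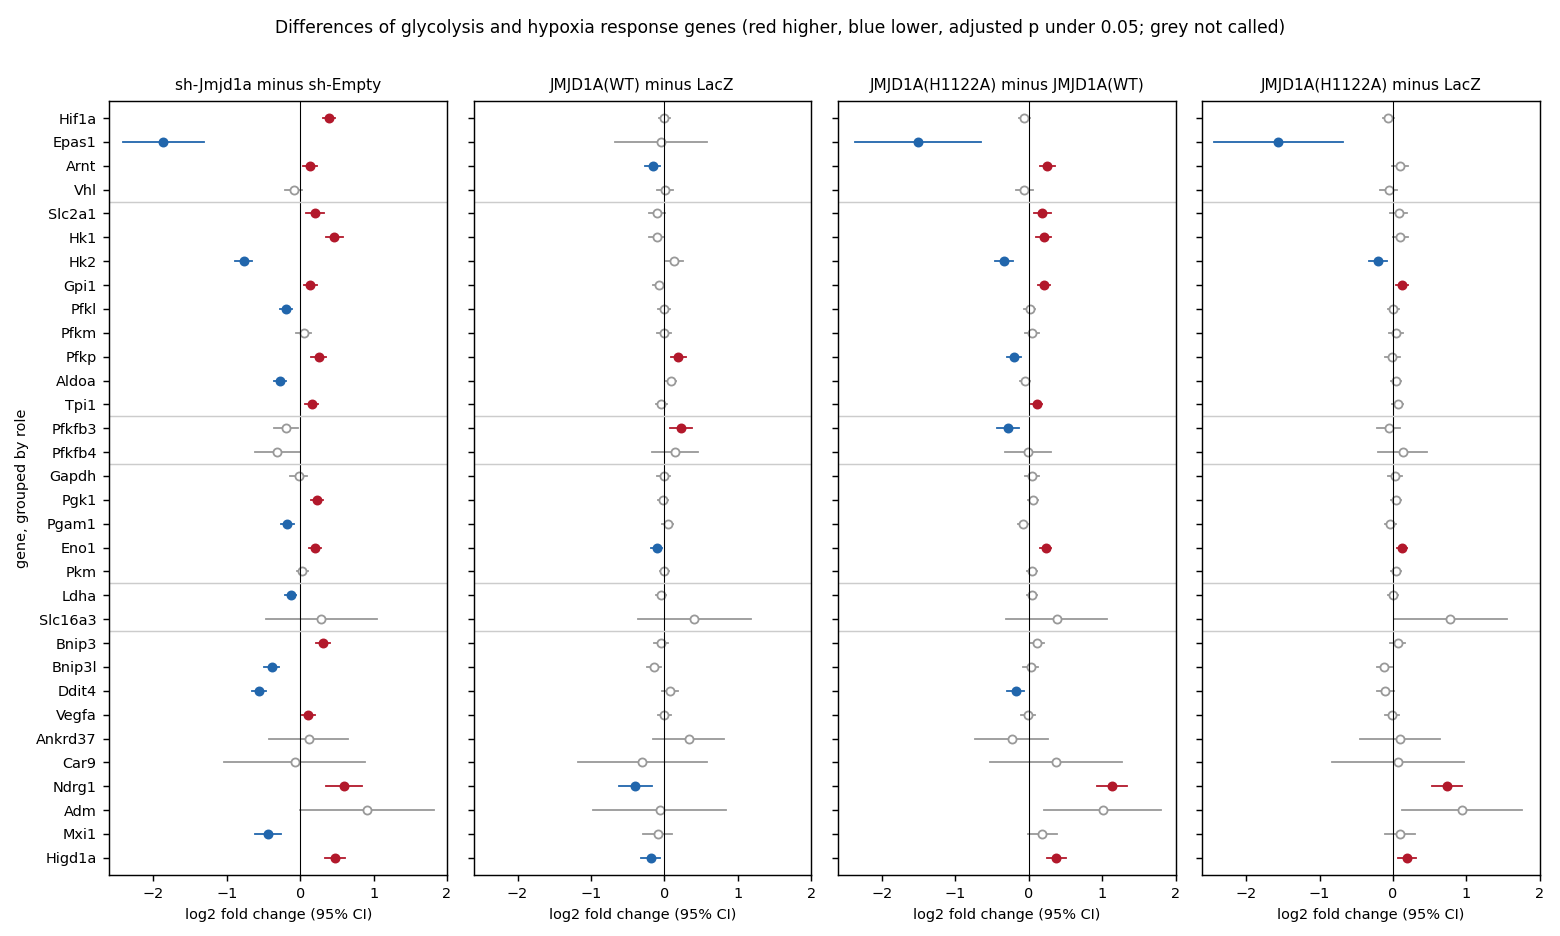
Log2 fold change of the 32 tested members in 4 comparisons (x axis, log2 units), with points for the fitted value and lines for the 95% confidence interval. Red and blue points were called higher and lower, and open grey points were not called. Epas1 and Hk2 lie left of 0 on knockdown, and Ndrg1 lies right of 0 on knockdown and with JMJD1A(H1122A).

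In level per exon length, the members ranged from 0.0476 CPM per kb for Car12 to 489 CPM per kb for Pkm in control cells. Here and below, exon length is that of all annotated exons of a gene merged. Pkm encodes pyruvate kinase, the last step of glycolysis. The next highest means were 441 CPM per kb for Aldoa (the main aldolase), 385 for Ldha, 382 for Pgk1 (phosphoglycerate kinase) and 348 for Pgam1 (phosphoglycerate mutase). Gapdh, which is commonly among the most abundant mRNAs of a cell, measured only 64.1 CPM per kb. The order of the members depends on the merged exon lengths, as for Eno1, with 5379 bases and 133 CPM per kb. Many of these genes have near-identical copies elsewhere in the genome. For 8 members, at least 50% of the 150-base windows of the transcript also matched another place in mm9 over at least 95% of their bases: 95.6% of the windows of Pgk1, 94.1% of Pgam1, 86.3% of Gapdh, 84.6% of Bnip3, 84.2% of Eno1, 72.4% of Gpi1, 69.9% of Pkm and 52.3% of Ldha. A further 5 members had lower shares, which were 45.8% for Tpi1, 33.6% for Bnip3l, 30.4% for Aldoa, 18.8% for Higd1a and 3.0% for Mxi1, and 21 had none. How reads that map to several places were handled is not given in the sources used here, so the levels and differences of these genes are uncertain. The exons of 11 members, among them Hif1a, Slc2a1, Hk1, Gpi1, Pfkp, Tpi1, Mxi1 and Ndrg1, overlap exons of another gene on the opposite strand. The strand setting of the counting is not given either, so reads of such partners cannot be told apart.

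**Figure D2:**
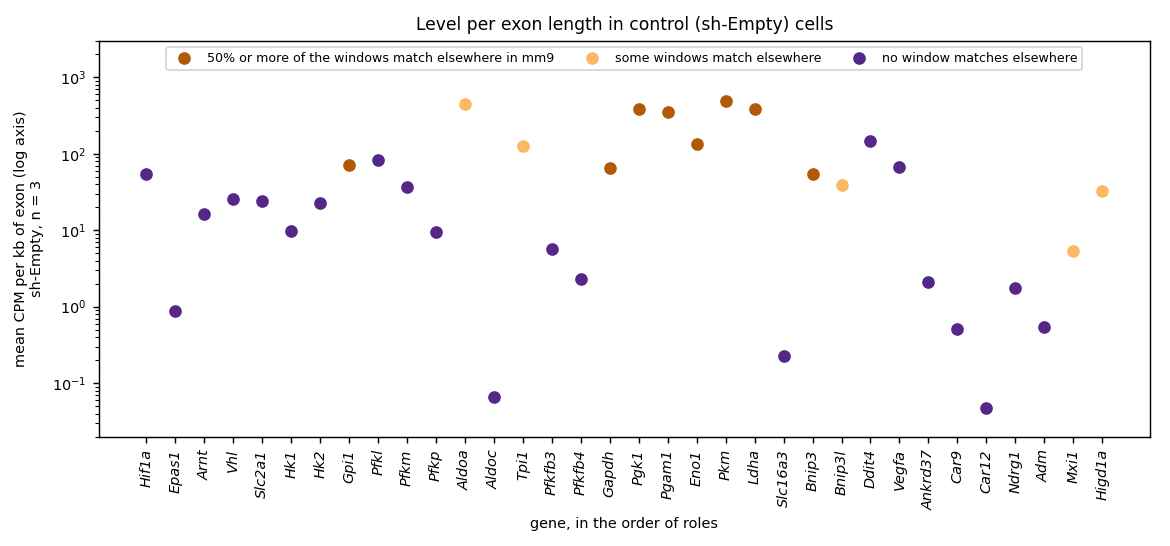
Mean CPM per kb of exon in control (sh-Empty) cells (y axis, log scale, n = 3) for the 34 members in the order of their roles, coloured by the share of 150-base windows that match elsewhere in mm9. Pkm, Aldoa, Ldha, Pgk1 and Pgam1 lie highest, and all 5 have windows that match elsewhere.

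Among the HIF factors, the alpha subunits moved in opposite directions on knockdown. Hif1a, the alpha subunit found in most cells, measured 319, 331 and 319 CPM in control cells and 420.2, 422 and 426 CPM in JMJD1A-KD cells. The groups did not overlap, and Hif1a rose by 0.39 ± 0.0388, adjusted p = 2.38e-09. Epas1, the alpha subunit known from endothelium and fat, was sparse, with 4.23, 4.48 and 5.18 CPM in control cells and 1.31, 1.37 and 1.17 CPM in JMJD1A-KD cells. Every control library was above every JMJD1A-KD library, and the log2 fold change was -1.86 ± 0.269, adjusted p = 1.56e-06. These levels rest on 48 to 80 counts per control library and 15 to 17 counts per JMJD1A-KD library. Arnt, the partner of both, rose from 132, 137 and 126 CPM to 141, 142 and 149.6 CPM, with no overlap and a log2 fold change of 0.13 ± 0.0487, adjusted p = 0.0256. The call for Arnt on knockdown was lost on leaving out sh-Empty replicate 1 or 3 (adjusted p from 0.0612 to 0.177). Vhl, whose product marks both alpha subunits for removal, measured 76.6 ± 1.49 and 72.1 ± 2.81 CPM and was not called (log2 fold change -0.089 ± 0.0575, adjusted p = 0.216, 95% confidence interval from -0.21 to 0.029).

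Within the rescue lines, Epas1 was lowest with the iron-binding mutant. It measured 1.20, 1.91 and 2.55 CPM with LacZ, 1.76, 2.66 and 1.40 CPM with JMJD1A(WT) and 0.626, 0.583 and 0.685 CPM with JMJD1A(H1122A). The mutant libraries, at 8 counts each, lay below all others, while the LacZ and JMJD1A(WT) libraries overlapped. Epas1 fell with JMJD1A(H1122A) against JMJD1A(WT) (-1.51 ± 0.427, adjusted p = 0.00683) and against LacZ (-1.56 ± 0.437, adjusted p = 0.016), and was not called with JMJD1A(WT) against LacZ (-0.051 ± 0.312, adjusted p = 0.959, 95% confidence interval from -0.68 to 0.58). The call for Epas1 with the mutant against LacZ was lost on leaving out LacZ replicate 3 or JMJD1A(H1122A) replicate 1 or 2 (adjusted p from 0.0646 to 0.124). Arnt measured 153, 129 and 152 CPM with LacZ, 133, 129 and 128 CPM with JMJD1A(WT) and 157, 155 and 152 CPM with JMJD1A(H1122A). It was higher with the mutant than with JMJD1A(WT) in every library (0.25 ± 0.0512, adjusted p = 0.000162), whereas LacZ replicate 2 lay among the JMJD1A(WT) libraries. The fall with JMJD1A(WT) against LacZ (-0.16 ± 0.0509, adjusted p = 0.0399) was therefore between overlapping groups. The call for Arnt with JMJD1A(WT) against LacZ was lost on leaving out LacZ replicate 1 or 3 or JMJD1A(WT) replicate 1 or 2 or 3 (adjusted p from 0.0602 to 0.252) and with library totals alone as the scale, DESeq2 or only the 2 groups compared in the fit (adjusted p from 0.0604 to 0.0867). Hif1a and Vhl were called in none of the rescue comparisons, with Hif1a at 454 ± 13.6, 453 ± 9.63 and 434 ± 15.6 CPM with LacZ, JMJD1A(WT) and JMJD1A(H1122A).

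At the entry of glycolysis, the hexokinases moved apart. Hk2 (chr6:82675019-82724448 in mm9), the insulin-responsive hexokinase of muscle and fat, measured 131, 137 and 132 CPM in control cells and 71.4, 82.0 and 81.0 CPM in JMJD1A-KD cells. The groups lay far apart, and Hk2 fell with a log2 fold change of -0.77 ± 0.0555, adjusted p = 2.68e-12. Hk1 (chr10:61731603-61842656), the hexokinase of most tissues, measured 89.5, 79.2 and 83.6 CPM in control cells and 113, 121 and 114 CPM in JMJD1A-KD cells. It rose without overlap (0.46 ± 0.0553, adjusted p = 6.18e-08). Per exon length, Hk2 made up 67.7% to 71.3% of the sum of both in control libraries and 47.5% to 50.4% in JMJD1A-KD libraries. The lengths, of all annotated exons merged, were 8532 bases for Hk1 and 5969 for Hk2. The size of the share depends on them. The share is a description, because an exact permutation test of 3 against 3 libraries cannot go below p = 0.1. Slc2a1, the basal glucose transporter GLUT1, rose from 71.0, 69.1 and 67.6 CPM to 79.6, 82.2 and 76.9 CPM (0.20 ± 0.0574, adjusted p = 0.00468).

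Among the rescue lines, Hk2 measured 78.0, 72.9 and 68.7 CPM with LacZ, 81.0, 77.8 and 82.0 CPM with JMJD1A(WT) and 58.9, 65.5 and 66.6 CPM with JMJD1A(H1122A). The mutant was lowest, and its libraries overlapped neither of the other groups. Hk2 fell with JMJD1A(H1122A) against JMJD1A(WT) (-0.34 ± 0.0603, adjusted p = 2.23e-05) and against LacZ (-0.20 ± 0.0620, adjusted p = 0.0283). The call for Hk2 with the mutant against LacZ was lost on leaving out LacZ replicate 1 or 2 or JMJD1A(H1122A) replicate 1 (adjusted p from 0.0606 to 0.236) and with all libraries thinned to the smallest total (adjusted p = 0.0719). The difference between JMJD1A(WT) and LacZ was not called (0.14 ± 0.0579, adjusted p = 0.159), with LacZ replicate 1 within the JMJD1A(WT) range. Hk1 measured 115 ± 6.72, 106 ± 5.86 and 123 ± 2.16 CPM in these groups, in the same order, and was higher with the mutant than with JMJD1A(WT) (0.20 ± 0.0515, adjusted p = 0.00255). Hk2 made up 44.7% to 49.6% of both hexokinases per exon length with LacZ, 51% to 52.8% with JMJD1A(WT) and 40.4% to 44.2% with JMJD1A(H1122A). Slc2a1 measured 80.3 ± 5.25, 74.5 ± 2.75 and 85.0 ± 2.87 CPM and rose with the mutant against JMJD1A(WT) (0.18 ± 0.0570, adjusted p = 0.0147). The call for Slc2a1 with the mutant against JMJD1A(WT) was lost on leaving out JMJD1A(H1122A) replicate 3 or JMJD1A(WT) replicate 1 (adjusted p from 0.0748 to 0.0794).

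**Figure D3:**
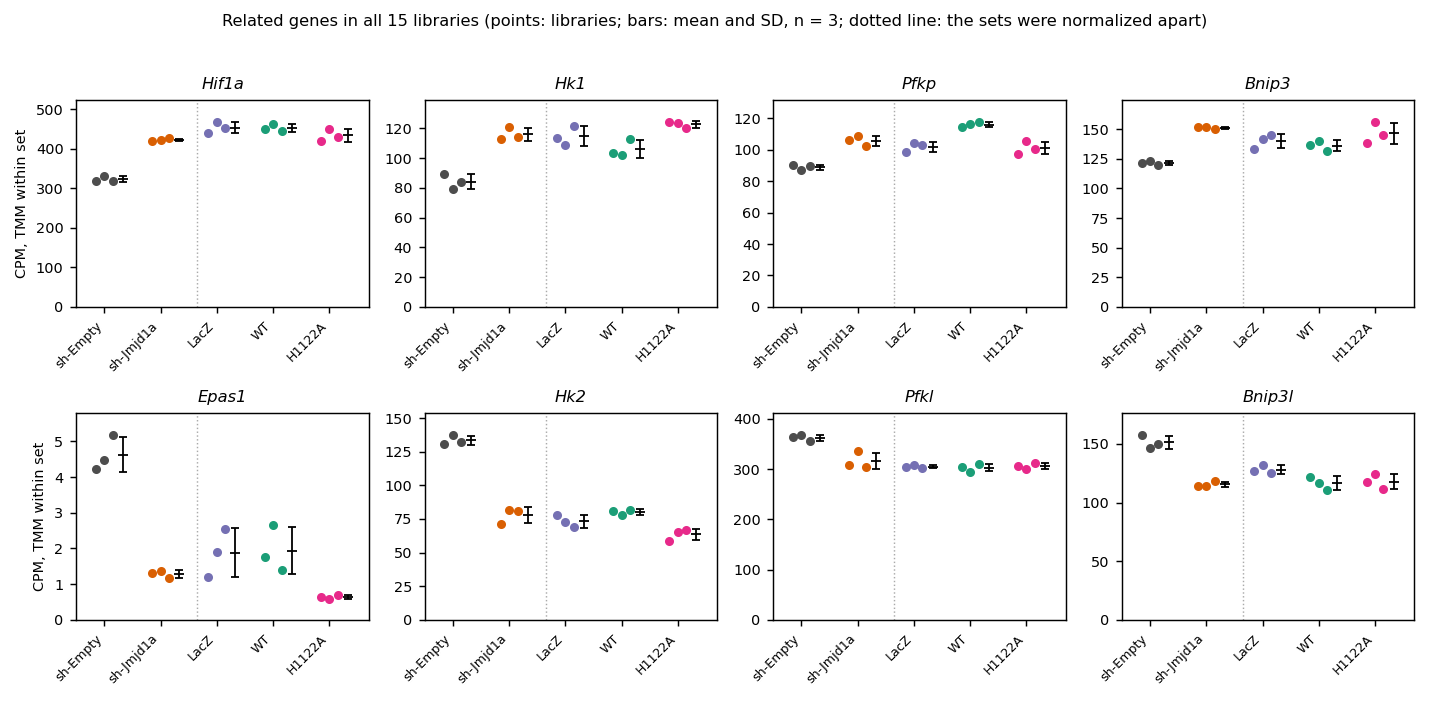
CPM (y axis, from 0) of 4 pairs of related genes in all 15 libraries, with points for libraries and bars for mean and SD (n = 3), and a dotted line between the knockdown and rescue sets, which were normalized apart. In each pair the gene in the upper row was higher after knockdown and the gene in the lower row was lower.

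The phosphofructokinases, which commit glucose to glycolysis, also moved apart. Pfkl, the liver subunit, measured 364, 368 and 356 CPM in control cells and 308, 336 and 305 CPM in JMJD1A-KD cells, and fell (-0.20 ± 0.0423, adjusted p = 0.000348). Pfkp, the platelet subunit, measured 90.0, 87.2 and 89.6 CPM in control cells and 106, 109 and 102 CPM in JMJD1A-KD cells, and rose (0.25 ± 0.0521, adjusted p = 0.000244). Both shifts were without overlap. Pfkm, the muscle subunit, was not called in any comparison and stayed between 109 and 124 CPM. Per exon length, Pfkl remained the major form, at 63.9% to 64.1% of the 3 genes in control libraries and 58.6% to 60% in JMJD1A-KD libraries. Pfkp went from 7.08% to 7.55% in control libraries to 9.1% to 9.43% in JMJD1A-KD libraries. The merged exon lengths were 4395 bases for Pfkl, 3051 for Pfkm and 9395 for Pfkp, and the size of each share depends on them.

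Pfkp was the one member called in the same direction on knockdown and with JMJD1A(WT) against LacZ. It measured 98.4, 104 and 103 CPM with LacZ, 115, 116 and 118 CPM with JMJD1A(WT) and 97.6, 106 and 100.2 CPM with JMJD1A(H1122A). The JMJD1A(WT) libraries were above all others of the set. Pfkp rose with JMJD1A(WT) against LacZ (0.19 ± 0.0488, adjusted p = 0.00625), fell with JMJD1A(H1122A) against JMJD1A(WT) (-0.20 ± 0.0496, adjusted p = 0.00191) and was not called with JMJD1A(H1122A) against LacZ (-0.01 ± 0.0509, adjusted p = 0.943). Pfkl was called in none of the rescue comparisons, with means of 305, 303 and 306 CPM. Pitrm1 is the gene whose exons overlap those of Pfkp.

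The other upper enzymes changed by less. Gpi1, which turns glucose-6-phosphate into fructose-6-phosphate, rose on knockdown from 319.6, 316 and 316 CPM to 337, 369.9 and 337 CPM (0.14 ± 0.0423, adjusted p = 0.00991). The call for Gpi1 on knockdown was lost on leaving out sh-Jmjd1a replicate 2 (adjusted p = 0.0982). With the transgenes, Gpi1 measured 302, 325 and 299.5 CPM with LacZ, 295, 292 and 291 CPM with JMJD1A(WT) and 335, 341 and 336 CPM with JMJD1A(H1122A). It was highest with the mutant in every library, against JMJD1A(WT) (0.20 ± 0.0390, adjusted p = 6.43e-05) and against LacZ (0.13 ± 0.0391, adjusted p = 0.0312). The call for Gpi1 with the mutant against LacZ was lost on leaving out LacZ replicate 1 or 3 or JMJD1A(H1122A) replicate 1 or 2 or 3 (adjusted p from 0.061 to 0.191) and with library totals alone as the scale (adjusted p = 0.0607). Aldoa, which splits fructose bisphosphate, fell on knockdown from 1261, 1185 and 1194 CPM to 1035, 1040 and 936 CPM (-0.27 ± 0.0405, adjusted p = 2.39e-06), and was called in none of the rescue comparisons. Tpi1, which interconverts the products of aldolase, rose on knockdown from 280.4 ± 9.28 to 312 ± 11.8 CPM (0.16 ± 0.0424, adjusted p = 0.00307) and with JMJD1A(H1122A) against JMJD1A(WT), from 297 ± 3.51 to 320 ± 7.64 CPM (0.11 ± 0.0378, adjusted p = 0.0342). The call for Tpi1 with the mutant against JMJD1A(WT) was lost on leaving out JMJD1A(H1122A) replicate 1 or 3 or JMJD1A(WT) replicate 1 or 2 or 3 (adjusted p from 0.0548 to 0.163) and with library totals alone as the scale (adjusted p = 0.117).

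Pfkfb3 and Pfkfb4 encode enzymes that make fructose-2,6-bisphosphate, the activator of phosphofructokinase. Pfkfb3 measured 42.1, 42.1 and 35.1 CPM in control cells and 34.6, 35.9 and 33.0 CPM in JMJD1A-KD cells, where control replicate 3 lay within the JMJD1A-KD range and the difference was not called (-0.19 ± 0.0821, adjusted p = 0.0535). The call for Pfkfb3 on knockdown was gained on leaving out sh-Empty replicate 3 (adjusted p = 0.00923) and with the legacy quasi-likelihood method (adjusted p = 0.0464). Among the rescue lines Pfkfb3 measured 37.9, 36.1 and 35.0 CPM with LacZ, 45.4, 43.1 and 40.0 CPM with JMJD1A(WT) and 32.6, 36.8 and 35.1 CPM with JMJD1A(H1122A). Every JMJD1A(WT) library was above the others. Pfkfb3 rose with JMJD1A(WT) against LacZ (0.22 ± 0.0730, adjusted p = 0.0424) and fell with JMJD1A(H1122A) against JMJD1A(WT) (-0.28 ± 0.0754, adjusted p = 0.00416). The call for Pfkfb3 with JMJD1A(WT) against LacZ was lost on leaving out LacZ replicate 2 or 3 or JMJD1A(WT) replicate 1 or 2 (adjusted p from 0.0862 to 0.212) and with upper-quartile factors, DESeq2, only the 2 groups compared in the fit or all libraries thinned to the smallest total (adjusted p from 0.0505 to 0.154). Pfkfb4 stayed between 6.26 and 9.65 CPM over the 15 libraries. It was lower without overlap in JMJD1A-KD cells, but the difference was not called (-0.31 ± 0.148, adjusted p = 0.0856), and it was not called in the rescue set.

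Along lower glycolysis, adjacent steps moved in different directions on knockdown. Pgk1 rose from 829, 879 and 860.5 CPM to 992, 1033 and 985 CPM (0.23 ± 0.0368, adjusted p = 8.11e-06). Pgam1, the next enzyme, fell from 639, 627 and 644 CPM to 573, 599 and 522 CPM (-0.17 ± 0.0425, adjusted p = 0.00125). Eno1, the enolase that follows, rose from 728, 726 and 694 CPM to 825, 860 and 787 CPM (0.20 ± 0.0389, adjusted p = 8.49e-05). None of these groups overlapped. Of the windows of Pgk1, Pgam1 and Eno1, 95.6%, 94.1% and 84.2% match elsewhere in mm9, so these differences are uncertain. Gapdh and Pkm were not called, with 144 ± 5.62 and 142 ± 12.9 CPM for Gapdh (-0.023 ± 0.0550, adjusted p = 0.766, 95% confidence interval from -0.14 to 0.09) and 1170 ± 20.0 and 1192 ± 23.0 CPM for Pkm (0.027 ± 0.0349, adjusted p = 0.557, 95% confidence interval from -0.044 to 0.099). Ldha, which turns pyruvate into lactate, fell from 1166, 1144 and 1132 CPM to 1055, 1092 and 998 CPM (-0.13 ± 0.0373, adjusted p = 0.00513). The call for Ldha on knockdown was lost on leaving out sh-Empty replicate 1 (adjusted p = 0.0678). Slc16a3, the lactate exporter MCT4, was barely detected, between 0.733 and 1.97 CPM over the 15 libraries, and was not called in any comparison.

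Of the lower enzymes, Eno1 was the one called in the rescue set. It measured 748, 777 and 747 CPM with LacZ, 714, 725 and 671 CPM with JMJD1A(WT) and 829, 795 and 848 CPM with JMJD1A(H1122A), and the 3 groups did not overlap. Eno1 fell with JMJD1A(WT) against LacZ (-0.11 ± 0.0357, adjusted p = 0.0463), and rose with JMJD1A(H1122A) against JMJD1A(WT) (0.23 ± 0.0358, adjusted p = 2.11e-06) and against LacZ (0.12 ± 0.0358, adjusted p = 0.0225). The call for Eno1 with JMJD1A(WT) against LacZ was lost on leaving out LacZ replicate 2 or 3 or JMJD1A(WT) replicate 1 or 3 (adjusted p from 0.0774 to 0.322) and with library totals alone as the scale, DESeq2, all 15 libraries in 1 fit, only the 2 groups compared in the fit, all libraries thinned to the smallest total or with Eno1 and Eno1b counts summed (adjusted p from 0.054 to 0.0925). The call for Eno1 with the mutant against LacZ was lost on leaving out LacZ replicate 1 or 3 or JMJD1A(H1122A) replicate 1 or 3 (adjusted p from 0.0644 to 0.116). Eno1b, a near-identical copy with its own row, held 34.8% to 39% as many counts as Eno1 and rose on knockdown (0.16 ± 0.0449, adjusted p = 0.00397) and with JMJD1A(H1122A) against JMJD1A(WT) (0.19 ± 0.0404, adjusted p = 0.000312). It was not called with JMJD1A(WT) against LacZ (-0.079 ± 0.0402, adjusted p = 0.266) or with JMJD1A(H1122A) against LacZ (0.11 ± 0.0405, adjusted p = 0.0786). Pgk1, Pgam1, Gapdh, Pkm and Ldha were called in none of the rescue comparisons, in which their log2 fold changes lay between -0.078 and 0.063.

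Outside glycolysis, the mitophagy receptors Bnip3 and Bnip3l moved in opposite directions on knockdown. Bnip3 measured 121, 124 and 120.2 CPM in control cells and 152, 152 and 150.1 CPM in JMJD1A-KD cells, and rose (0.32 ± 0.0461, adjusted p = 1.91e-06). Bnip3l (NIX) measured 158, 146 and 149.5 CPM in control cells and 114, 114 and 118 CPM in JMJD1A-KD cells, and fell (-0.39 ± 0.0482, adjusted p = 1.22e-07). Neither pair of groups overlapped. Per exon length, Bnip3l went from 41% to 43.3% of the sum of both in control libraries to 30.6% to 31.6% in JMJD1A-KD libraries. Neither gene was called in the rescue set. Bnip3l was lower with JMJD1A(WT) than with LacZ in every library (122, 117 and 110.3 against 127, 132 and 125 CPM), with a log2 fold change of -0.14 ± 0.0499, adjusted p = 0.0586. The call for Bnip3l with JMJD1A(WT) against LacZ was gained on leaving out JMJD1A(WT) replicate 1 (adjusted p = 0.0391) and with upper-quartile factors or no filter beyond 1 count (adjusted p from 0.0428 to 0.0447). The call for Bnip3 with the mutant against JMJD1A(WT) was gained on leaving out JMJD1A(H1122A) replicate 1 (adjusted p = 0.0453).

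Ddit4 and Mxi1, which encode the mTORC1 inhibitor REDD1 and a MYC antagonist, fell on knockdown. Ddit4 measured 251, 239.5 and 246 CPM in control cells and 168, 176 and 156 CPM in JMJD1A-KD cells (-0.56 ± 0.0461, adjusted p = 4.87e-11). Mxi1 measured 29.2, 29.3 and 31.7 CPM in control cells and 22.4, 22.3 and 21.8 CPM in JMJD1A-KD cells (-0.44 ± 0.0865, adjusted p = 0.000104). The groups did not overlap for either gene. Across the rescue lines, Ddit4 measured 152, 159 and 147 CPM with LacZ, 151, 158 and 172 CPM with JMJD1A(WT) and 134, 136 and 157 CPM with JMJD1A(H1122A). It was called lower with the mutant than with the wild type (-0.18 ± 0.0543, adjusted p = 0.0132), although mutant replicate 3 lay within the JMJD1A(WT) range. The call for Ddit4 with the mutant against JMJD1A(WT) was lost on leaving out JMJD1A(H1122A) replicate 1 or 2 or JMJD1A(WT) replicate 3 (adjusted p from 0.0954 to 0.179). The call for Ddit4 with the mutant against LacZ was gained on leaving out JMJD1A(H1122A) replicate 3 (adjusted p = 0.0386). Mxi1 was called in none of the rescue comparisons, with means of 21.1, 19.9 and 22.5 CPM.

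Ndrg1, a stress-responsive gene also induced by differentiation and iron chelation, had the largest rises among the members called. It lies at chr15:66760883-66801202 in mm9 and measured 10.6, 11.6 and 12.5 CPM in control cells and 16.9, 19.8 and 16.1 CPM in JMJD1A-KD cells. It rose on knockdown without overlap (0.60 ± 0.121, adjusted p = 0.000167). Across the rescue lines Ndrg1 measured 15.8, 15.9 and 16.1 CPM with LacZ, 13.5, 12.3 and 11.1 CPM with JMJD1A(WT) and 28.1, 26.2 and 25.2 CPM with JMJD1A(H1122A). The groups were separate, with JMJD1A(WT) lowest and the mutant highest. Ndrg1 fell with JMJD1A(WT) against LacZ (-0.40 ± 0.112, adjusted p = 0.0134), rose with JMJD1A(H1122A) against JMJD1A(WT) (1.14 ± 0.103, adjusted p = 3.17e-12) and rose with JMJD1A(H1122A) against LacZ (0.74 ± 0.101, adjusted p = 6.3e-07). The call for Ndrg1 with JMJD1A(WT) against LacZ was lost on leaving out JMJD1A(WT) replicate 3 (adjusted p = 0.173) and with all libraries thinned to the smallest total (adjusted p = 0.0886). The genes whose exons overlap those of Ndrg1 are Gm17035 and Gm2895.

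Higd1a, a mitochondrial survival factor, followed the same order. It measured 64.2, 56.1 and 63.2 CPM in control cells and 82.1, 91.6 and 81.2 CPM in JMJD1A-KD cells, and rose without overlap (0.47 ± 0.0645, adjusted p = 6.45e-07). Its levels were 69.3, 77.9 and 80.0 CPM with LacZ, 61.8, 69.3 and 67.8 CPM with JMJD1A(WT) and 83.5, 81.9 and 94.0 CPM with JMJD1A(H1122A). Every LacZ library was above the JMJD1A(WT) libraries and below the mutant libraries, although LacZ replicate 1 exceeded the highest JMJD1A(WT) library by less than the spread within either group. Higd1a fell with JMJD1A(WT) against LacZ (-0.19 ± 0.0622, adjusted p = 0.0452), rose with JMJD1A(H1122A) against JMJD1A(WT) (0.38 ± 0.0622, adjusted p = 6.2e-06) and rose with JMJD1A(H1122A) against LacZ (0.19 ± 0.0622, adjusted p = 0.0452). The call for Higd1a with JMJD1A(WT) against LacZ was lost on leaving out LacZ replicate 2 or 3 or JMJD1A(WT) replicate 1 or 3 (adjusted p from 0.0797 to 0.254) and with library totals alone as the scale, DESeq2, all 15 libraries in 1 fit or all libraries thinned to the smallest total (adjusted p from 0.0521 to 0.0834). The call for Higd1a with the mutant against LacZ was lost on leaving out LacZ replicate 1 or 2 or JMJD1A(H1122A) replicate 1 or 3 (adjusted p from 0.0566 to 0.302) and with upper-quartile factors, library totals alone as the scale, DESeq2 or all libraries thinned to the smallest total (adjusted p from 0.0501 to 0.0976).

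**Figure D4:**
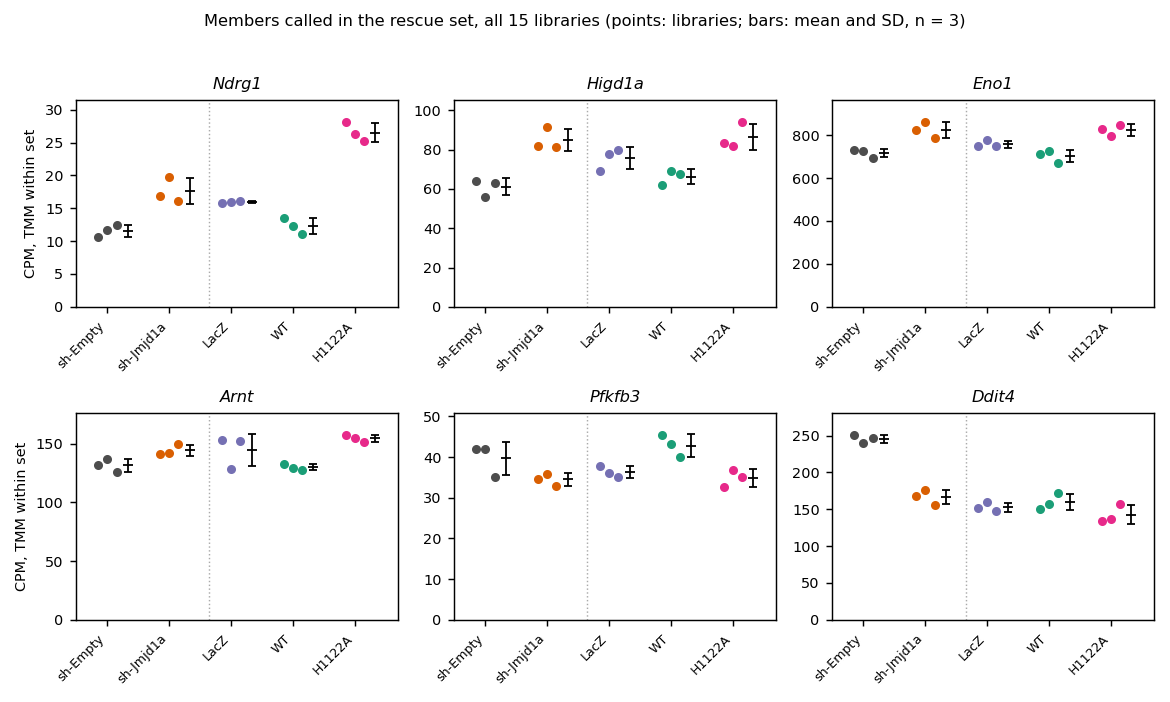
CPM (y axis, from 0) of 6 members in all 15 libraries, with points for libraries, bars for mean and SD (n = 3), and a dotted line between the sets, which were normalized apart. Ndrg1, Higd1a and Eno1 were lowest with JMJD1A(WT) and highest with JMJD1A(H1122A) in the rescue set, and Pfkfb3 was highest with JMJD1A(WT).

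The remaining HIF targets changed little or were too low to judge. Vegfa, the main growth factor for blood vessels, rose slightly on knockdown, from 283, 294 and 280.5 CPM to 296, 311 and 317 CPM (0.11 ± 0.0415, adjusted p = 0.0327), and was called in none of the rescue comparisons. The call for Vegfa on knockdown was lost on leaving out sh-Jmjd1a replicate 2 or sh-Empty replicate 1 or 3 (adjusted p from 0.0729 to 0.152). Adm, which encodes the vasodilator adrenomedullin, was not called in any comparison. Its values were 0.352, 0.776 and 1.10 CPM in control cells, 1.13, 1.05 and 2.18 CPM in JMJD1A-KD cells and 2.43, 2.04 and 0.771 CPM with JMJD1A(H1122A), and its difference between the mutant and JMJD1A(WT) was 1.01 ± 0.393, adjusted p = 0.057. The call for Adm with the mutant against JMJD1A(WT) was gained on leaving out JMJD1A(H1122A) replicate 3 (adjusted p = 0.0128) and with only the 2 groups compared in the fit (adjusted p = 0.0482). Car9, a carbonic anhydrase, and Ankrd37, both strongly induced by low oxygen in many cells, stayed between 0.323 and 1.74 CPM and between 2.27 and 5.29 CPM and were not called. For Car9 the 95% confidence interval of the log2 fold change on knockdown ran from -1.04 to 0.89, so differences of about this size were not detectable at this depth.

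The comparisons of JMJD1A(WT) with LacZ and of JMJD1A(H1122A) with JMJD1A(WT) share the JMJD1A(WT) libraries, so each one's log2 fold changes are set side by side after that on knockdown. They were 0.13, -0.16 and 0.25 for Arnt, 0.20, -0.11 and 0.23 for Eno1, 0.60, -0.40 and 1.14 for Ndrg1 and 0.47, -0.19 and 0.38 for Higd1a, all called. Those of Hk2 were -0.77, 0.14 and -0.34, of which the one with JMJD1A(WT) against LacZ was not called. Those of Pfkfb3 were -0.19, 0.22 and -0.28, of which the one on knockdown was not called. On knockdown and with JMJD1A(H1122A) against JMJD1A(WT), which share no library, 8 members rose in both, 3 fell in both (Epas1, Hk2 and Ddit4), and 1, Pfkp, rose in the first and fell in the second. Of the 12202 genes tested in both sets, 5.98% rose in both, 6.45% fell in both and 1.78% rose in the first and fell in the second. The falls of Pfkl, Aldoa, Pgam1, Ldha, Bnip3l and Mxi1 and the rises of Hif1a, Pgk1, Bnip3 and Vegfa on knockdown were not called in any rescue comparison.

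Other genes of both pathways, from lists written with earlier results of these data known, moved in both directions as well. Of 28 other genes of glycolysis and lactate metabolism, 18 were tested, and 7 fell and 5 rose on knockdown. These were 38.9% and 27.8% of the 18, where 23.9% of all genes tested fell and 22.3% rose. Ldhb, the heart-type subunit of lactate dehydrogenase, fell the most of those with at least 5 CPM, from 132 to 45.6 CPM (-1.53 ± 0.0592, adjusted p = 2.91e-18), followed by Pdk2, an inhibitor of pyruvate dehydrogenase (-1.21 ± 0.140, adjusted p = 3.97e-08). Of the same 18 genes, 2 rose with JMJD1A(WT) against LacZ and the other 16 were not called. The 2 were Slc2a4 (2.13 ± 0.520, adjusted p = 0.00422) and Pgm1 (0.13 ± 0.0399, adjusted p = 0.036), both named after their values were seen. With JMJD1A(H1122A), 3 rose and 2 fell against JMJD1A(WT), and 2 rose and 1 fell against LacZ. In this order, 11.1%, 16.7% and 11.1% of the 18 rose, against 4.98%, 12.1% and 4.78% of all genes. The shares that fell were 0%, 11.1% and 5.56%, against 4.52%, 11.7% and 4.46% of all genes. Bpgm, which makes the regulator bisphosphoglycerate, was higher with the mutant than with JMJD1A(WT) (0.32 ± 0.0977, adjusted p = 0.0136) and LacZ (0.34 ± 0.101, adjusted p = 0.0242), and Pdk3 was higher with the mutant than with LacZ (0.28 ± 0.0840, adjusted p = 0.0276).

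Of 34 other genes of oxygen sensing and the HIF pathway, 30 were tested in the knockdown set, and 14 rose and 9 fell. These were 46.7% and 30% of the 30, where 22.3% of all genes tested rose and 23.9% fell. Where the mean reached 5 CPM, the genes that rose included Plod2, a collagen lysyl hydroxylase (1.16 ± 0.0613, adjusted p = 3.04e-15), and Lox, the collagen cross-linking oxidase (1.09 ± 0.0390, adjusted p = 4.56e-19). Tfrc, the transferrin receptor, fell (-0.54 ± 0.0470, adjusted p = 1.77e-10). Of the 32 tested in the rescue set, 4 rose and 3 fell with JMJD1A(WT) against LacZ, with the largest rises, again among those with at least 5 CPM, for Ppp1r3c (0.29 ± 0.0527, adjusted p = 9.05e-05), Egln3 (0.17 ± 0.0545, adjusted p = 0.0443) and Angptl4 (0.16 ± 0.0372, adjusted p = 0.0025) and the largest falls for Lox (-0.20 ± 0.0345, adjusted p = 3.02e-05), Ero1a (-0.17 ± 0.0544, adjusted p = 0.0403) and P4ha2 (-0.17 ± 0.0520, adjusted p = 0.0332). With JMJD1A(H1122A) against JMJD1A(WT), 11 rose and 9 fell, led at that level by Lox (0.71 ± 0.0344, adjusted p = 2.61e-21) and P4ha2, a prolyl hydroxylase of collagen (0.40 ± 0.0518, adjusted p = 4.68e-08), and by falls of Bhlhe40, a repressor (-0.40 ± 0.0524, adjusted p = 5.59e-08), Gbe1, the glycogen branching enzyme (-0.36 ± 0.0835, adjusted p = 0.00106), and Tfrc (-0.25 ± 0.0452, adjusted p = 2.35e-05). With JMJD1A(H1122A) against LacZ, 3 rose and 3 fell, with Lox among the higher (0.51 ± 0.0344, adjusted p = 1.41e-15) and Bhlhe40 (-0.31 ± 0.0533, adjusted p = 6.29e-05) and Tfrc (-0.21 ± 0.0457, adjusted p = 0.0012) among the lower. In the order of these 3 rescue comparisons, 12.5%, 34.4% and 9.38% of the 32 rose, against 4.98%, 12.1% and 4.78% of all genes. The shares of the 32 that fell were 9.38%, 28.1% and 9.38%, against 4.52%, 11.7% and 4.46% of all genes. The summed preadipocyte and fibroblast markers, mostly Col1a1 and Col1a2, were also higher on knockdown, as Plod2 and Lox were, and their part in these rises was not tested.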

How the data were processed

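Poly(A) RNA-seq counts of 15 libraries from 3T3-L1 cells were analysed, with 5 groups of 3 replicates taken from the sample labels. The authors used fastp for trimming, HISAT2 for alignment to mm9 and featureCounts for counting, and deposited raw counts by Entrez Gene number with no normalization. The labels and the study's methods name different library kits, and neither the strand setting nor the treatment of reads that map to several places is given in the sources used here. Library totals lay between 11437058 and 25523148 counts (median 12916162), which limits the precision for genes near the filter.

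Counts were analysed with edgeR 4.0.16 in R 4.3.3 (limma 3.58.1, statmod 1.5.0). The 6 libraries of the knockdown set and the 9 of the rescue set were each given their own TMM factors and their own fit, with no replicate block. The filter filterByExpr with a minimum count of 10 left 12272 and 12557 genes. The robust quasi-likelihood F test (bias-adjusted deviances) was used with Benjamini-Hochberg adjustment over all genes tested, at 0.05, and the scripts were tested on simulated data. Standard errors come from the F statistic. Symbols and promoters came from RefSeq tables of GRCm38.p6, and coordinates and exon lengths from GENCODE M1 on mm9. The share of repeated sequence was found by aligning 150-base windows, every 25 bases, of each member's longest coding transcript to mm9 with minimap2 2.31.

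The members and all gene lists were chosen with earlier results of these data known. Genes named are the 34 members, Kdm3a, 6 markers of fat cells and their precursors (Pparg, Cebpa, Fabp4, Adipoq, Pdgfra and Dlk1), and, per comparison, the 3 largest changes in each direction among other pathway genes with an adjusted p under 0.05 and a mean of at least 5 CPM, of which 1 is not reported here. Eno1b, Slc2a4, Pgm1, other single markers and the genes in the closing section were added after their values were seen. Promoters shown are those of the 6 members called in most comparisons among those with an entry in the table.

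Alternatives were RLE factors, upper-quartile factors, library totals alone, other filters, DESeq2 1.42.0, the legacy quasi-likelihood method, all 15 libraries in 1 fit, only the 2 groups compared, a replicate block, thinning to the smallest total, and each library left out in turn. Summing Eno1 and Eno1b was added after the data were seen.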

Additional observations from a re-analysis of the deposited data

How the results depend on the processing

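Of the 47 calls among the members, 29 were kept under every alternative. A further call, that of Epas1 with JMJD1A(H1122A) against JMJD1A(WT), was not lost but had no value with at least 10 counts in every library. The other 17 were lost without 1 library, and 11 of these were also lost in at least 1 setting other than leaving out a library. None of the 47 reversed direction. Of 81 differences not called, 7 were called under at least 1 alternative and 26 changed sign under at least 1. With JMJD1A(WT) against LacZ, the 4 fallen members became 1 with library totals alone, with DESeq2 and with thinning, 2 with all 15 libraries in 1 fit and with only the 2 groups compared, and 0 to 3 without 1 library. The 2 risen members became 1 with upper-quartile factors, DESeq2, only the 2 groups compared and thinning, and 1 to 2 without 1 library. With JMJD1A(H1122A) against LacZ, the 2 fallen members became 1 with at least 10 counts in every library, DESeq2 and thinning, and 0 to 3 without 1 library, and the 4 risen members became 2 with library totals alone and 1 to 3 without 1 library. The filter at 10 counts removes Epas1 by construction, and the other causes were not tested. On knockdown the members called stayed at 11 to 13 higher and 8 to 10 lower without 1 library, and with JMJD1A(H1122A) against JMJD1A(WT) at 6 to 8 higher and 4 to 5 lower. Library totals alone moved the share of lower calls over all genes with JMJD1A(H1122A) against JMJD1A(WT) from 49.2% to 59%. Samples with the same replicate number deviated together little if at all (r from -0.0611 to 0.0674 over 12 pairs, 0 of them over 0.1). Within the rescue set these r ran from -0.0118 to 0.0674. Such small values cannot decide whether the numbers pair the samples. With the replicate number as a block, the calls over all genes went from 5672 to 5425 on knockdown, from 1193 to 1393 with JMJD1A(WT) against LacZ, from 2985 to 3283 with JMJD1A(H1122A) against JMJD1A(WT) and from 1160 to 1413 with JMJD1A(H1122A) against LacZ. Arnt (adjusted p = 0.0513, edgeR) and Vegfa then lost their calls on knockdown, and calls were gained by Pfkfb3 on knockdown and by Aldoa and Bnip3l with JMJD1A(WT) against LacZ. Depth limits Epas1, Adm, Car9, Slc16a3 and Ankrd37, whose confidence intervals are wide.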

Other observations

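Both genes described here were chosen after their values were seen, and both lie near the limit of detection. Slc2a4, the insulin-responsive glucose transporter of fat and muscle, had a mean of 1.49 CPM with sh-Empty and 0.223 CPM with sh-Jmjd1a (log2 fold change -2.71 ± 0.549 SE, edgeR's quasi-likelihood test, adjusted p = 1.55e-04). Its mean was 0.393 CPM with LacZ, 2.02 CPM with JMJD1A(WT) and 0.185 CPM with JMJD1A(H1122A), and its difference between JMJD1A(H1122A) and JMJD1A(WT) was -3.20 ± 0.649 (adjusted p = 2.00e-04). The groups did not overlap in either comparison. Hif3a, a HIF alpha subunit that lacks the usual C-terminal activation domain, had means of 0.575 CPM with LacZ, 2.67 CPM with JMJD1A(WT) and 0.385 CPM with JMJD1A(H1122A). No knockdown value is given here for Hif3a. No tested gene of its list fell on knockdown below the -0.54 of Tfrc, but 30 were tested there and 32 in the rescue set. That limit may therefore not cover Hif3a. Hif3a was higher with the wild type than with LacZ (2.15 ± 0.372, adjusted p = 3.54e-05), and it was lower with the mutant than with the wild type (-2.70 ± 0.426, adjusted p = 2.82e-06). The adipocyte markers moved in the same directions in these comparisons, and their part in these differences was not tested.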
